A study of Mus musculus with 6 samples.

Results

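The genes described here are those of the laminins, nidogens, perlecan and agrin, the proteins that, together with type IV collagen, build the basement membrane around muscle fibres and blood vessels. They were chosen by name: the laminin alpha chains *Lama2*, *Lama4* and *Lama5*, the beta chains *Lamb1* and *Lamb2*, the gamma chain *Lamc1*, the nidogens *Nid1* and *Nid2*, *Hspg2* (perlecan) and *Agrn* (agrin). All 10 were in the deposited table of 41709 genes, and all 10 were among the 11611 genes with a mean of at least 1 TPM over the 6 libraries, which were tested. RNA-seq was done on tibialis anterior (TA) muscles of male C57BL/6J mice. 3 muscles were electroporated with a plasmid for LrpprcWT, the wild-type form of the mitochondrial RNA-binding protein Lrpprc, and 3 with a plasmid for LrpprcP27A, a variant that carries alanine in place of proline 27 and cannot be dihydroxylated there. The comparison asks how gene expression in muscle differs between the variant and the wild-type form, each expressed in addition to the muscle's own Lrpprc. In both groups the muscle had been injected with hyaluronidase before electroporation, the plasmid carried a 3xFlag tag and the CMV promoter, which is active in most cell types, and the muscles were collected after 14 days. The muscles were contralateral, so each mouse also served as its own control, and no library of a muscle without a plasmid was analysed here. The age of the sequenced mice is not given in the sources used here.

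A laminin is a trimer of an alpha, a beta and a gamma chain, and its chains decide where it is found: the alpha-2 chain is the main one around muscle fibres, and the alpha-4 and alpha-5 chains are prominent in vessel walls, with alpha-5 also at the neuromuscular junction. Laminin polymers are anchored to the cell surface by dystroglycan and integrins, nidogens connect laminin with type IV collagen, and the heparan sulphate proteoglycans perlecan and agrin bind to both networks and to growth factors. Loss of *LAMA2* causes a congenital muscular dystrophy, and nerve-derived agrin gathers acetylcholine receptors at the synapse.

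In muscles with LrpprcP27A, 7 of the 10 genes were lower than with LrpprcWT, and none was higher (limma, adjusted p under 0.05). Of all genes tested, 23.3% were lower and 1.34% higher by the same test. The genes that fell were *Lama2*, *Lama4*, *Lamb1*, *Lamc1*, *Nid1*, *Nid2* and *Agrn*, whose means with LrpprcP27A were between 0.370 (*Lamb1*) and 0.546 (*Lama2*) of the means with LrpprcWT. *Hspg2* did not pass the test without pairing and passed it when the muscles were treated as pairs. *Lamb2* and *Lama5* did not pass it, with means at 0.827 and 0.903 of those with LrpprcWT. The shares of single chains within the alpha and within the beta chains did not overlap between the groups. Shares of one set are tied to each other, so they are not separate results. The ratios of *Lama5* to *Lama2* and of *Lamb1* to *Lamb2* each had p = 0.1 by an exact permutation test, adjusted 0.175. *Lama5* made up 34.4% ± 3.52 (SD, n = 3) of the alpha chain transcripts with LrpprcWT and 48.8% ± 1.901 (SD, n = 3) with LrpprcP27A, and *Lamb1* made up 22.7% ± 7.33 of the beta chain transcripts with LrpprcWT and 11.8% ± 2.16 with LrpprcP27A.

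The promoters of 4 of these genes are shown because they stand at both ends of the range of change: *Lamb1* and *Nid1*, which fell the most along with *Nid2*, and *Lama5* and *Lamb2*, which did not pass the test. They are RefSeq sequences of the build GRCm38.p6, each the stretch upstream of the earliest RefSeq start within a window of 300 bases (250 before and 50 after a gene's start). They are written 5′ to 3′ on the strand of the gene, and capitals mark a GC box (GGGCGG or CCGCCC) or a CCAAT box (CCAAT or ATTGG). The positions are chr12:31265043-31265145 for *Lamb1* (plus strand), chr13:13437352-13437601 for *Nid1* (plus strand), chr9:108479612-108479846 for *Lamb2* (plus strand) and chr2:180225905-180226109 for *Lama5* (minus strand).
Lamb1: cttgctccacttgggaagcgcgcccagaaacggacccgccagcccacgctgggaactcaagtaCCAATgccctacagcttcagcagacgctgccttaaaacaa
Nid1: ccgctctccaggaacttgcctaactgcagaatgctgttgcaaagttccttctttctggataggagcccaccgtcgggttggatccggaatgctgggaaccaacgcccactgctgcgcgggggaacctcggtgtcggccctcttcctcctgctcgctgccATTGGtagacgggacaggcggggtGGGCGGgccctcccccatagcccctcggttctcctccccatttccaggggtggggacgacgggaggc
Lamb2: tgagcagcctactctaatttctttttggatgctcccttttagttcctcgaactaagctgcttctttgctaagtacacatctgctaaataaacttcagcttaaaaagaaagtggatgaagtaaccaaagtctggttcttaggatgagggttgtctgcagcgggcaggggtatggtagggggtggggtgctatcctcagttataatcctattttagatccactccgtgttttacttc
Lama5: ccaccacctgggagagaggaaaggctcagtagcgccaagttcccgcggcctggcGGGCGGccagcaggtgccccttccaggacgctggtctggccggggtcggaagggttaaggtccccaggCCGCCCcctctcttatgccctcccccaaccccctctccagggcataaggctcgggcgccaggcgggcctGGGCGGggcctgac
Of the 10 genes, 7 had a RefSeq window, with 8 windows in all. *Lama4*, *Lamc1* and *Nid2* had none. A GC box, searched on both strands over the whole window, was found in 7 of the 8 windows and in 35.7% of the 32851 windows of all genes. The exception was *Lamb2*, whose window had a GC content of 44.0%, against 50.3% to 83.3% in the others. A CCAAT box was found in 2 of the 8 windows, those of *Lamb1* and *Nid1*, and in 37.4% of all windows. A TATA box (TATAAA or TTTATA) was in none of the 8 and in 13.6% of all windows. These matches describe the letters of the windows and say nothing on which factors bind there.

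Facts that touch all of the values come first. TPM gives the abundance of each transcript per unit of its length as a part of a constant sum, so levels of different genes can be compared, but each value also depends on how much of the sum the remaining genes take. Each library sums to 1000000 TPM, and its depth is unknown. The 10 genes together took between 251.4 and 450.4 TPM in the LrpprcWT libraries and between 179.2 and 234.8 TPM in the LrpprcP27A libraries. Most genes were lower with LrpprcP27A on this scale: the log2 fold change was negative for 88.0% of those tested, with a median of -0.32. Nuclear ribosomal RNA genes took 0.888% to 1.76% of the TPM with LrpprcWT and 3.70% to 4.44% with LrpprcP27A, and genes of the mitochondrial genome took 36.0% to 45.2% and 44.2% to 46.1%. The part of these shares in the results was not tested. The changes are given on the deposited scale, and the results are also given after median-of-ratios scaling, which divides each library by a factor that sets the typical gene to no change and moves the median of all genes to -0.0047. *Lrpprc* itself stood at 35.1, 37.0 and 75.2 TPM with LrpprcWT and at 26.9, 29.7 and 26.0 TPM with LrpprcP27A, a log2 fold change of -0.72 (SE 0.26) that did not pass the test without pairing (limma adjusted p = 0.0652) and passed it with the replicate block (limma adjusted p = 0.00243). TPM does not tell the transcript of the plasmid from that of the genome.

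Among the alpha chains, *Lama2* and *Lama4* fell and *Lama5* did not pass the test. *Lama2* (chromosome 10, 26856032 to 27495754, minus strand, GRCm39) encodes the alpha-2 chain of merosin, the laminin of the muscle fibre. It stood at 12.02, 6.96 and 10.1 TPM in the LrpprcWT muscles and at 5.52, 4.63 and 5.71 TPM in the LrpprcP27A muscles. The groups did not overlap, and the LrpprcWT library of replicate 2 was the one nearest to the LrpprcP27A libraries, as it was for each of the other genes except *Lama5*. The log2 fold change, LrpprcP27A minus LrpprcWT on the log2(TPM + 1) scale, was -0.74 (SE 0.19, limma adjusted p = 0.0308). *Lama4* (chromosome 10, 38841141 to 38998403, plus strand) encodes the alpha-4 chain of vessel and synapse laminins. It stood at 17.9, 6.55 and 11.8 TPM with LrpprcWT and at 6.35, 3.79 and 5.61 TPM with LrpprcP27A. The lowest LrpprcWT value lay just above the highest LrpprcP27A value, and the log2 fold change was -0.99 (SE 0.31, limma adjusted p = 0.0484). *Lama5* (chromosome 2, 179818166 to 179867712, minus strand) encodes the alpha-5 chain. It stood at 14.2, 8.43 and 10.5 TPM with LrpprcWT and at 10.9, 8.76 and 10.3 TPM with LrpprcP27A. The 3 LrpprcP27A values lay inside the range of the LrpprcWT values, with a log2 fold change of -0.11 and a 95% interval from -0.53 to 0.31 (limma adjusted p = 0.629). After median-of-ratios scaling the sign of *Lama5* turned, to 0.23 with an interval from -0.08 to 0.54.

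The beta chains differed from each other in the same way. *Lamb1* (chromosome 12, 31315030 to 31379658, plus strand), the beta-1 chain found in most laminins, had the largest decrease of the 10 genes. It stood at 30.2, 12.6 and 22.3 TPM with LrpprcWT and at 9.95, 6.51 and 7.68 TPM with LrpprcP27A. The groups did not overlap, and the log2 fold change was -1.27 (SE 0.28, limma adjusted p = 0.0238). Only 2.40% of the genes tested had a lower log2 fold change. *Lamb2* (chromosome 9, 108356935 to 108367729, plus strand), the beta-2 chain enriched at the neuromuscular junction and in vessel walls, stood at 69.8, 68.5 and 78.3 TPM with LrpprcWT and at 60.4, 59.7 and 59.0 TPM with LrpprcP27A. These groups did not overlap either, but the distance was small, with a log2 fold change of -0.27 and a 95% interval from -0.50 to -0.04 (limma adjusted p = 0.0765). That value lies above the median of all genes, and after median-of-ratios scaling it was 0.10, with an interval from -0.12 to 0.33. *Lamc1* (chromosome 1, 153094597 to 153208774, minus strand) encodes the gamma-1 chain that nearly all laminins share. It stood at 75.4, 41.1 and 62.8 TPM with LrpprcWT and at 34.7, 26.97 and 30.3 TPM with LrpprcP27A. Every LrpprcP27A value was below every LrpprcWT value, and the log2 fold change was -0.91 (SE 0.21, limma adjusted p = 0.0249).

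Both nidogens fell. *Nid1* (chromosome 13, 13612071 to 13686860, plus strand), the linker that binds the gamma-1 chain, stood at 84.8, 39.1 and 70.9 TPM with LrpprcWT and at 32.3, 20.05 and 29.7 TPM with LrpprcP27A. The groups did not overlap (log2 fold change -1.17, SE 0.28, limma adjusted p = 0.0265). *Nid2* (chromosome 14, 19801298 to 19861855, plus strand), its close relative, stood at 27.1, 9.25 and 16.7 TPM with LrpprcWT and at 10.01, 4.91 and 5.82 TPM with LrpprcP27A. Here the LrpprcP27A muscle of replicate 1 was above the LrpprcWT muscle of replicate 2, so the groups overlapped, and the log2 fold change was -1.18 (SE 0.36, limma adjusted p = 0.0448).

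Of the proteoglycans, *Agrn* passed the test and *Hspg2* did not pass it without pairing. Both calls depended on single libraries, and that for *Hspg2* also on the pairing. *Hspg2* (chromosome 4, 137196079 to 137298231, plus strand) encodes perlecan, which also holds acetylcholinesterase at the synapse. It had the highest mean level of the 10 genes with LrpprcWT, at 105.5, 52.8 and 75.0 TPM, and stood at 58.5, 39.5 and 47.4 TPM with LrpprcP27A. The LrpprcP27A muscle of replicate 1 was above the LrpprcWT muscle of replicate 2, while each LrpprcP27A muscle was below its own partner. The log2 fold change was -0.63 (SE 0.24), with a limma adjusted p of 0.0757 without pairing and 5.06e-04 with the replicate block. Without the LrpprcWT library of replicate 2 it was 0.0114, without pairing (limma adjusted p). *Agrn* (chromosome 4, 156249740 to 156282014, minus strand) encodes agrin, and TPM per gene does not separate the nerve form from that of muscle and vessels. It stood at 13.4, 6.16 and 9.75 TPM with LrpprcWT and at 6.06, 4.33 and 4.49 TPM with LrpprcP27A. The groups did not overlap, by a narrow gap between 6.06 and 6.16 TPM, and the log2 fold change was -0.81 (SE 0.25, limma adjusted p = 0.0449). With each library left out, the limma adjusted p of *Agrn* ranged from 0.00476 to 0.155, and after median-of-ratios scaling it was 0.130.

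**Figure D1:**
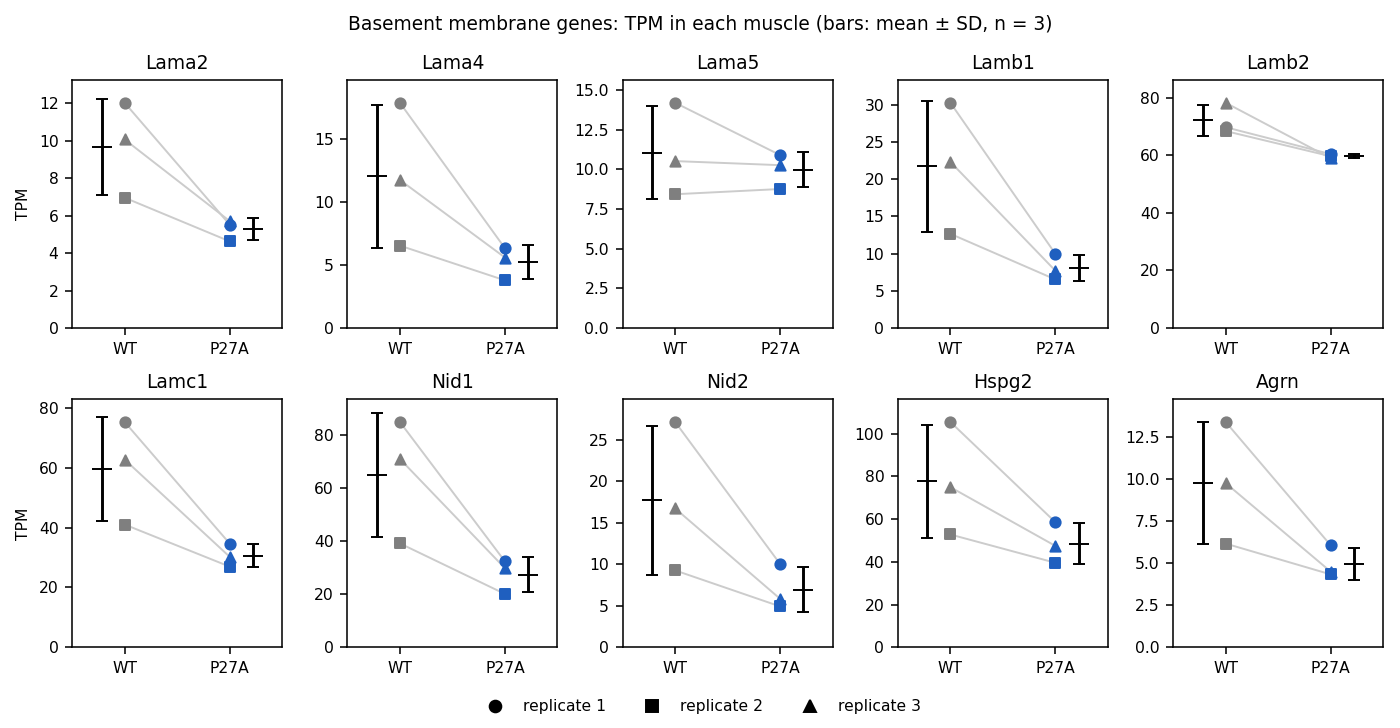
TPM (y axis, starting at 0, a scale of its own in each panel) of the 10 genes in the LrpprcWT (grey) and LrpprcP27A (blue) muscles; symbols mark the replicate, grey lines join muscles of the same replicate number, and bars give the mean ± SD (n = 3). *Lamb1* lies at 6.51 to 9.95 TPM with LrpprcP27A and at 12.6 to 30.2 TPM with LrpprcWT, whereas the groups overlap for *Lama5*.

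Read against all genes, the 7 of 10 that fell compare with 23.3% of the genes tested (limma, lower), and the count of 0 that rose with 1.34% (limma, higher). At an unadjusted limma p under 0.05, 9 of the 10 were lower and 0 were higher, against 44.2% and 2.59% of all genes. With the replicate block 8 of 10 passed the test, against 48.4% of all genes. Every LrpprcP27A value was below every LrpprcWT value in 7 of the 10 genes and in 47.6% of all genes, and 9 of the 10 were lower in all 3 pairs, as were 70.1% of all genes. *Lama5* was the exception, with a difference of 0.05 in pair 2. The median log2 fold change of the 10 genes was -0.86 and that of all genes -0.32, and 8 of the 10, all but *Lama5* and *Lamb2*, lay below the median of all genes. 

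After median-of-ratios scaling the median of the 10 genes was -0.51 against -0.0047 for all genes, and *Lama5* and *Lamb2* were the 2 with a positive value. Only *Lamb1* still passed the test without pairing (log2 fold change -0.92, limma adjusted p = 0.0465), against 6.03% of all genes, while 7 of the 10 were lower at an unadjusted p under 0.05, against 17.4% of all genes. With the replicate block on the scaled values 8 of 10 passed, against 15.8% of all genes, and the 8 were those with negative values, with limma adjusted p between 0.00483 (*Nid1*) and 0.0494 (*Hspg2*). On the scaled values 4 of the 10 genes, *Lama2*, *Lamb1*, *Lamc1* and *Nid1*, did not overlap between the groups and were lower, as did 19.0% of all genes. The count of calls also rested on single libraries. Without the LrpprcWT library of replicate 2 it was 9 of 10, where 59.5% of all genes were lower, and without the LrpprcP27A library of replicate 1 it was 5, where 14.5% of all genes were. It was 0 when any of the other 4 libraries was left out, in fits that called 0.129% to 4.34% of all genes lower (limma). In those 4 fits 7 or 8 of the 10 were lower at an unadjusted p under 0.05, as were 27.6% to 32.5% of all genes.

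**Figure D2:**
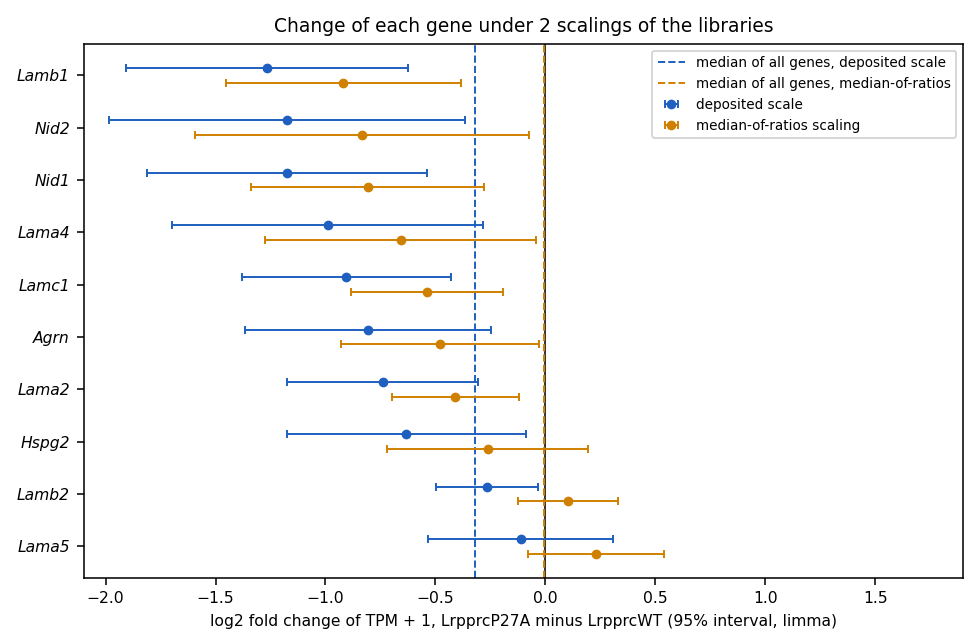
Log2 fold change of TPM + 1 (x axis, LrpprcP27A minus LrpprcWT) for each of the 10 genes (y axis), on the deposited scale (blue) and after median-of-ratios scaling (orange); points are estimates, bars are 95% intervals from limma, and dashed lines are the medians of all genes tested. *Lamb1* is lowest on both scales, at -1.27 and -0.92, and *Lama5* and *Lamb2* lie below 0 on the deposited scale and above 0 after scaling.

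The ratio of 2 genes within a library does not change with the scaling, and 7 such ratios were compared between the groups by an exact permutation test, two-sided, in which 3 muscles against 3 cannot go below p = 0.1. The ratio of *Lama5* to *Lama2* was 1.18, 1.21 and 1.05 with LrpprcWT and 1.97, 1.89 and 1.80 with LrpprcP27A. The groups did not overlap, and the ratio was 1.65-fold higher with LrpprcP27A (log2 difference 0.72, exact p = 0.1, adjusted over the 7 ratios 0.175), by 0.64 to 0.78 in the 3 pairs. The SD within a group was 0.11 with LrpprcWT and 0.07 with LrpprcP27A on the log2 scale, so the difference exceeded the spread between muscles, while the exact test of 3 against 3 cannot pass the threshold. The ratio of *Lamb1* to *Lamb2* was 0.433, 0.185 and 0.285 with LrpprcWT and 0.165, 0.109 and 0.130 with LrpprcP27A. This ratio fell to 0.468 of its level with LrpprcWT (log2 difference -1.10, exact p = 0.1, adjusted 0.175), without overlap. The ratio of *Lamc1* to the summed beta chains (log2 difference -0.46) and that of *Agrn* to *Hspg2* (log2 difference -0.28) were also lower without overlap (exact p = 0.1, adjusted 0.175 for each). The other 3 ratios overlapped between the groups. The log2 difference was -0.28 for *Lama4* to *Lama2* (exact p = 0.4, adjusted 0.56), -0.17 for summed alpha to summed beta chains (exact p = 0.6, adjusted 0.7) and -0.09 for *Nid2* to *Nid1* (exact p = 0.9).

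**Figure D3:**
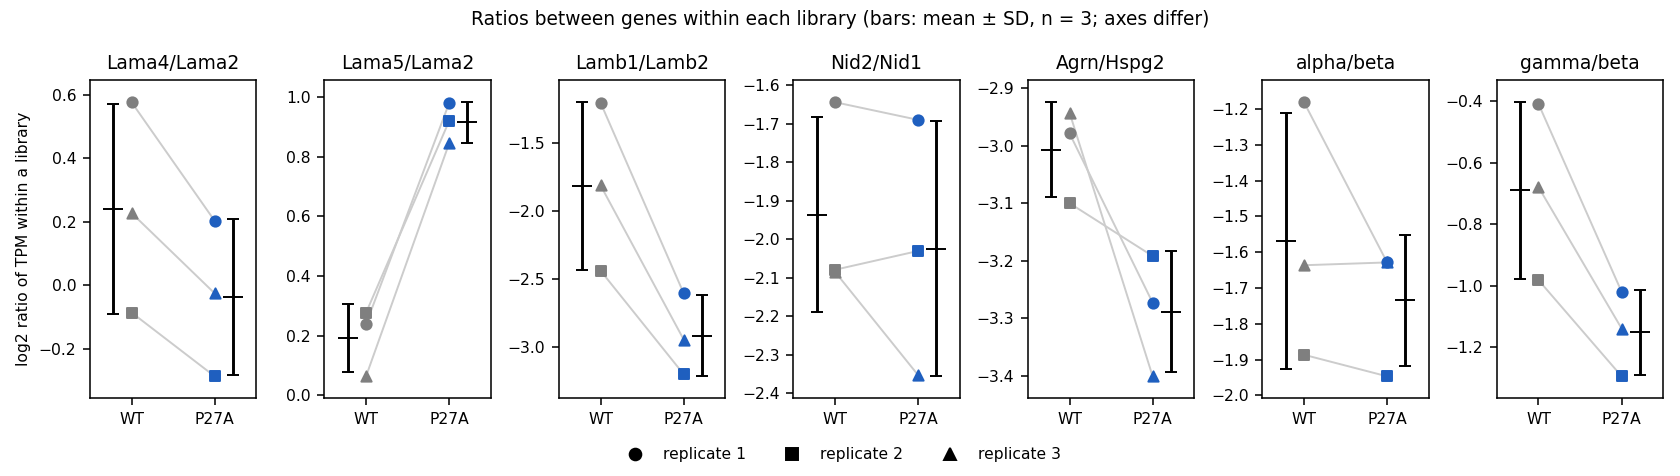
Log2 ratio of the TPM of 2 genes or sums of genes within each library (y axis, a scale of its own in each panel) for 7 ratios; alpha is *Lama2*, *Lama4* and *Lama5*, beta is *Lamb1* and *Lamb2*, and gamma is *Lamc1*. Symbols mark the replicate and bars the mean ± SD (n = 3), and the *Lama5*/*Lama2* ratio lies at 0.06 to 0.28 with LrpprcWT and at 0.85 to 0.98 with LrpprcP27A.

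As shares of the summed alpha chains, *Lama5* took 32.1%, 38.4% and 32.5% in the LrpprcWT libraries and 47.8%, 51.0% and 47.5% in the LrpprcP27A libraries. *Lama4*, at 35.6% ± 5.41 (SD, n = 3) with LrpprcWT and 25.3% ± 2.97 with LrpprcP27A, and *Lama2*, at 30.0% ± 2.42 and 25.9% ± 1.43, took smaller shares, again without overlap. *Lamb2* was the main beta chain in every library and took 77.3% ± 7.33 of the beta transcripts with LrpprcWT and 88.2% ± 2.16 with LrpprcP27A. *Nid2* took 20.8% ± 2.96 of the nidogen transcripts with LrpprcWT and 19.9% ± 3.65 with LrpprcP27A, with overlapping groups. *Agrn* took 11.1% ± 0.557 of the summed *Agrn* and *Hspg2* with LrpprcWT and 9.29% ± 0.612 with LrpprcP27A.

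**Figure D4:**
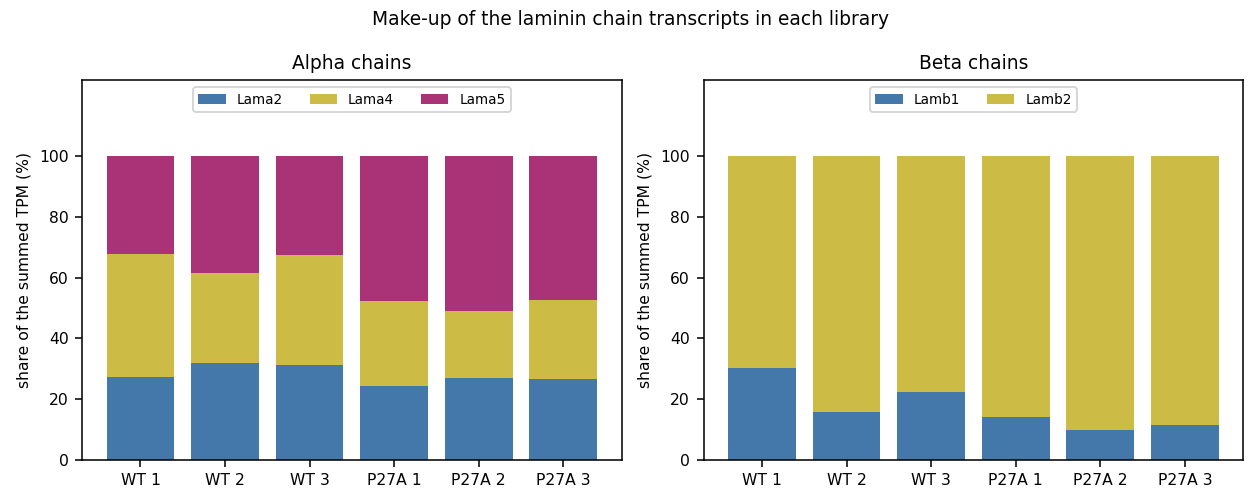
Share of each gene in the summed TPM (y axis, percent) of the alpha chains (left) and of the beta chains (right), one bar per library. *Lama5* takes 32.1% to 38.4% of the alpha chains with LrpprcWT and 47.5% to 51.0% with LrpprcP27A, and *Lamb2* is the larger beta chain in all 6 libraries.

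The order of the levels was as follows. With LrpprcWT the mean TPM fell from *Hspg2* (77.8) over *Lamb2* (72.2), *Nid1* (64.9) and *Lamc1* (59.8) to *Lamb1* (21.7), *Nid2* (17.7), *Lama4* (12.1), *Lama5* (11.04), *Agrn* (9.77) and *Lama2* (9.68). Of the neighbours in this order, only *Lamc1* and *Lamb1* had ranges that did not overlap, so the first 4 genes stood above the other 6, and the ranges of neighbours within each set overlapped. With LrpprcP27A *Lamb2* (59.7) came first, apart from *Hspg2* (48.5), which was apart from *Lamc1* (30.6). *Lamc1* and *Nid1* (27.4) overlapped, *Nid1* was apart from *Lama5* (9.97), and *Lamb1* (8.05), *Nid2* (6.91), *Lama2* (5.29), *Lama4* (5.25) and *Agrn* (4.96) followed with overlapping ranges. *Lama5* thus stood at the eighth place with LrpprcWT and at the fifth with LrpprcP27A.

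The genes also varied together among muscles of the same group. Across the 6 libraries, the log2 values of 8 of the 10 genes correlated by r = 0.98 to 0.99 with the mean of the other 9, and those of *Lama5* and *Lamb2* by 0.75 and 0.79. For deviations from the group means the r was 0.96 to 1.00 for all but *Lamb2*, at 0.25. These correlations are descriptions of 6 libraries in 2 groups, which share their scaling, and 34.5% of the 7072 genes compared had an r above 0.9 with the mean of the 10 genes (16.4% for deviations from the group means). The 5 genes outside the group with the most similar pattern over the 6 libraries were *Ddx17*, an RNA helicase (r = 0.999), *Kctd17*, *Mxd4*, *Ddx52* and *Micall1* (each r = 0.998). For deviations from the group means they were *Arfgap1* (0.999), *N4bp3*, *Myh1*, a fast myosin heavy chain, *Pkd1*, the polycystin-1 gene, and again *Ddx17* (each 0.998).

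Of the other laminin alpha chains, both were at low levels. *Lama1*, the embryonic alpha chain, had a mean of 0.0057 TPM with LrpprcWT and 0.0052 with LrpprcP27A, and *Lama3*, the epithelial alpha chain, 0.545 and 0.318. Neither reached a mean of 1 TPM, and neither was tested. The gamma-3 chain gene *Lamc3*, named after its values were seen and also below 1 TPM and not tested, stood at 0.188, 0.236 and 0.125 TPM with LrpprcWT and at 0.519, 0.594 and 0.518 TPM with LrpprcP27A, without overlap. All 5 basement membrane collagens that were tested, of 8 listed, fell (median log2 fold change -1.18). *Col4a1* and *Col4a2*, the chains of the common type IV collagen, went from means of 254.3 and 188.1 TPM to 107.0 and 89.2 TPM (log2 fold changes -1.16 and -1.01, limma adjusted p = 0.0399 and 0.0398). *Col18a1* and *Col15a1*, the collagens of vessel and muscle fibre membranes, had the largest decreases, with log2 fold changes of -1.45 and -1.37. Of 10 other basement membrane proteins tested, 3 fell without pairing and 7 with the replicate block, with a median of -0.60. Of all genes tested, 23.3% were lower without pairing and 48.4% with the block. *Sparc*, which binds type IV collagen, went from 498.0 to 189.9 TPM (log2 fold change -1.36, limma adjusted p = 0.0199), and *Pxdn*, the peroxidase that cross-links it, had a log2 fold change of -1.24 (limma adjusted p = 0.0259). After median-of-ratios scaling 3 of the 5 collagens still passed the test, *Col4a5*, *Col15a1* and *Col18a1*. Of the 10 other proteins 2 did, *Sparc* and *Npnt*, where 6.03% of all genes were lower. *Col4a1*, *Col4a2* and *Pxdn* did not pass (limma adjusted p = 0.105, 0.110 and 0.0637). On the deposited scale no gene of either list was higher without pairing, at an adjusted or an unadjusted limma p under 0.05. After median-of-ratios scaling *Egflam*, one of the other proteins, had a log2 fold change of 0.36, without overlap between the groups. It did not pass the test without pairing (limma adjusted p = 0.0815) and passed it with the replicate block (limma adjusted p = 0.0239). In that scaled fit with the block, 5 of the 10 other proteins were lower.

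Receptors of laminin and perlecan were lower in 7 of 10 cases (9 with the replicate block, median -0.66), against 23.3% and 48.4% of all genes. *Dag1*, which encodes dystroglycan, had a mean of 109.0 TPM with LrpprcWT and 76.3 TPM with LrpprcP27A (log2 fold change -0.50, limma adjusted p = 0.0240). The integrin genes *Itgb1* and *Itga7*, the subunits of the main laminin integrin of muscle fibres, had log2 fold changes of -0.71 and -0.63 (limma adjusted p = 0.0271 and 0.0183), and the syndecans *Sdc2* and *Sdc4*, which are cell surface proteoglycans, -1.10 and -0.99. After median-of-ratios scaling only *Sdc2* of this list passed the test, and the value for *Dag1* was -0.13. The enzymes that build the laminin-binding sugar of dystroglycan lay near the median of all genes: of 11 tested, 0 passed the limma test (5 were lower at an unadjusted p under 0.05), 4 were lower with the block, and the median was -0.29. After scaling, *Rxylt1*, which adds xylose, had a log2 fold change of 0.41 (limma adjusted p = 0.0407), and the median of the list was 0.04, so the direction for this list depends on the scaling. In the agrin receptor pathway, *Dok7*, the activator of the receptor kinase, fell by 0.56 (limma adjusted p = 0.0494), the one of 4 that passed. This count lies near the share of all genes, 23.3%. The agrin receptor *Lrp4* and the kinase *Musk* had log2 fold changes of -0.57 and -0.66 (limma adjusted p = 0.0531 and 0.101), and both passed with the replicate block (adjusted p = 0.00317 and 0.00486, limma), where 3 of 4 genes were lower. After scaling none of the 4 passed (limma). Of 18 enzymes of heparan sulphate, the sugar carried by perlecan and agrin, 4 fell without pairing and 10 with the block (median -0.35). These counts lie near the shares of all genes, 23.3% and 48.4%, and the median near that of all genes. The largest decreases were those of the sulphatases *Sulf2* and *Sulf1*, at -1.09 and -0.71. After scaling 0 of these 18 were lower and 1, *Extl3*, was higher, at 0.40 (limma adjusted p = 0.0435). *Extl3* was named after its value was seen. Of all genes tested, 6.03% were lower and 5.25% higher after scaling, so these counts lie near those shares. With the block on the scaled values 4 of the 18 were lower, among them *Sulf2* and *Sulf1* (limma adjusted p = 0.00538 and 0.0222), and 1 was higher. In that fit 15.8% of all genes were lower and 13.4% higher.

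**Figure D5:**
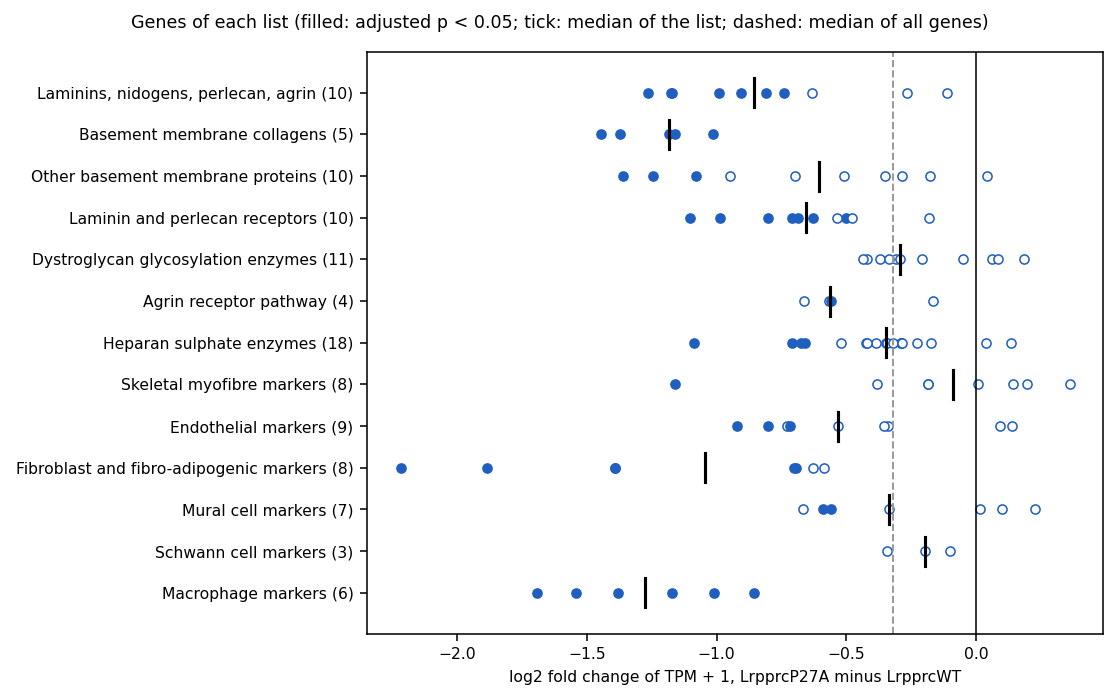
Log2 fold change of TPM + 1 (x axis, LrpprcP27A minus LrpprcWT, deposited scale) of the genes tested in each list (y axis, number of genes in parentheses); filled points passed the limma test at an adjusted p under 0.05, ticks are list medians and the dashed line is the median of all genes tested. The medians of the 10 genes (-0.86) and of the basement membrane collagens (-1.18) lie below that line (-0.32), and that of the dystroglycan enzymes (-0.29) lies beside it.

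Several cell types of muscle make basement membrane, and their markers moved with the groups to different extents. In whole muscle, fewer cells of a type and less RNA per cell cannot be told apart. Of all genes tested, 23.3% were lower without pairing and 48.4% with the replicate block. Markers of the muscle fibre, which checks the labelled tissue, summed to between 93120 and 108245 TPM with overlapping groups, and 1 of 8 fell, *Myh2*, the type IIA myosin heavy chain (from 317.4 to 147.4 TPM, log2 fold change -1.16, limma adjusted p = 0.0236). With the block *Myh1* was lower as well and *Myh4* higher. After median-of-ratios scaling *Myh2* did not pass (-0.79, limma adjusted p = 0.0768). In that fit 0 of the 8 were lower and 1, *Ttn*, the titin gene, was higher (0.57, limma adjusted p = 0.0489), against 6.03% and 5.25% of all genes. Adding the block gave 1 lower, *Myh2* (limma adjusted p = 0.0493), and 3 higher, *Ckm*, *Myh4* and *Ttn*. Of all genes, 15.8% were lower and 13.4% higher in that fit. Fibroblast and fibro-adipogenic markers fell in 6 of 8 cases, led by *Col1a1* (log2 fold change -2.22) and *Col1a2* (-1.88), and their summed level was 719.8 to 1124 TPM with LrpprcWT and 227.0 to 452.2 TPM with LrpprcP27A, without overlap. All 6 macrophage markers fell, led by *Cd68* (-1.69) and *Lyz2* (-1.54), and their sum was 266.6 to 519.8 TPM with LrpprcWT and 90.5 to 176.1 TPM with LrpprcP27A. Endothelial markers fell in 3 of 9 cases (7 with the block), with *Cldn5* at -0.92 and *Cdh5* at -0.80, and their sums overlapped, at 219.4 to 387.4 and 164.8 to 220.6 TPM. *Vwf* and *Flt1* of this list had positive values, 0.14 and 0.09, and did not pass. With the block and median-of-ratios scaling 4 of the 9 were lower and 2, *Vwf* and *Flt1*, were higher (limma adjusted p = 0.0495 and 0.0430). Of all genes, 15.8% and 13.4% were. Of the mural cell markers 2 of 7 were lower (4 with the block), *Pdgfrb* at -0.59 and *Cspg4* at -0.56, counts near the shares of all genes (23.3% and 48.4%), with a list median of -0.34 and overlapping sums of 314.9 to 450.6 and 263.5 to 344.8 TPM. *Kcnj8*, *Myh11* and *Abcc9* of this list had positive values, 0.22, 0.10 and 0.01, and did not pass. With the block and median-of-ratios scaling 0 of the 7 were lower and 1, *Abcc9*, was higher (0.38, limma adjusted p = 0.0336). Of the Schwann cell markers 3 of 5 were tested and 0 passed, also at an unadjusted limma p under 0.05, with overlapping sums of 20.4 to 40.4 and 18.2 to 37.1 TPM. No marker of any list was at 0 in all libraries. After median-of-ratios scaling 4 of the 8 fibroblast and 3 of the 6 macrophage markers still passed, and 0 of the endothelial, mural and Schwann cell markers did (limma). Of all genes 6.03% were lower in that fit, and the counts of 0 in these short lists lie near that share. With the block as well, 5 of the 8 fibroblast, 6 of the 6 macrophage and 0 of the 3 Schwann cell markers were lower, against 15.8% of all genes. The part of these cell types in the values of the laminins, nidogens, perlecan and agrin was not tested.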

How the data were processed

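Per the study's methods, the authors used CLC Genomics Workbench to trim paired-end reads and to map them to GRCm39. The deposited values are TPM of 41709 genes in 6 libraries; the gene annotation is not given in the sources used here. TPM keeps no read number, so no counting error is given.

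Values were transformed to log2(TPM + 1). The 11611 genes whose TPM averaged 1 or more were fitted by group in limma 3.58.1 (R 4.3.3, trend, Benjamini-Hochberg over all genes tested, threshold 0.05). This scale understates the change of low genes. The study compared contralateral muscles, and the deviations of same-numbered muscles from the group means correlated by 0.36, 0.53 and 0.36 across genes, so the replicate number was also used as a block. The labels do not say outright that a number is a mouse. The limma p-values weigh a group difference against the spread between these muscles, or with the block against the spread of the differences within pairs. In limma that spread is moderated by a trend over all genes tested. The fit was tested on simulated data. Ratios within a library were compared by exact permutation tests. Positions are those of GENCODE genes on GRCm39, matched by symbol, and promoters are RefSeq windows on GRCm38.p6.

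The members, the gene lists and the tests were chosen with earlier results of these data known. All 10 genes are named. In each list up to 3 genes are named: the 2 largest decreases and the largest increase past the threshold. *Dag1*, *Itga7*, *Itgb1*, *Lrp4*, *Musk*, *Col4a1*, *Col4a2*, *Lama1*, *Lama3* and *Lrpprc* are always named, as are the 5 genes with the highest correlation by each of 2 measures, among genes averaging 5 TPM or more. Other genes named were chosen after their values were seen, and a few results for genes of the lists are not reported here. Alternatives covered a pseudocount of 0.1, a fit of all genes, a minimum mean TPM of 5, limma without the trend, a linear model without moderation, the Kruskal-Wallis test, the block, 3 other scalings and each library left out. The block without pair 2, on both scales, was added after seeing the data.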

Additional observations from a re-analysis of the deposited data

How the results depend on the processing

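The count of genes that fell (7 of 10) depended on the processing, while the median of the 10 genes stayed below that of all genes under all 19 alternatives. The count was 0 with no filter, with a linear model without moderation, with the Kruskal-Wallis test, with quantile normalization and with rescaling without mitochondrial and ribosomal RNA genes, where 9, 5, 7, 6 and 7 of the 10 were lower at an unadjusted p under 0.05 by limma or the test named. In these 5 settings the share of all genes called lower also fell, to 0.196%, 0.00861%, 0%, 4.46% and 5.67%, and the share at an unadjusted p under 0.05 was 31.1%, 33.1%, 47.6%, 14.6% and 26.7%. It was 1 with median-of-ratios scaling and ranged from 0 to 9 when each library was left out. With the replicate block it was 8, also without pair 2 (48.4% and 54.5% of all genes), and apart from *Hspg2* the block changed no call among the 10 genes. With the block and median-of-ratios scaling it was 8, and 6 without pair 2 (15.8% and 10.5% of all genes). Relative to the deposited scale, *Lama5* turned to 0.23 with median-of-ratios scaling, to 0.23 with quantile normalization, to 0.063 with rescaling, and to 0.23 with the replicate block and median-of-ratios scaling, with or without pair 2. *Lamb2* turned to 0.10 with median-of-ratios scaling, with or without the block, and to 0.16 with both and without pair 2. The cause was not tested. With each library left out, the log2 fold change of *Lama5* ranged from -0.27 to 0.069, the log2 difference of the ratio of *Nid2* to *Nid1* from -0.26 to 0.076, and that of summed alpha to beta chains from -0.33 to 0.027. Of the 190 values of single genes under these alternatives, 101 kept their direction and their side of the threshold, 75 kept their direction and lost the call, 5 gained a call and 9 turned. The unknown depth of the libraries limits what can be said of genes under 1 TPM.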
